A study of Mus musculus with 15 samples.

Results

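The 9 genes described here encode proneural and neuronal basic helix-loop-helix (bHLH) transcription factors, and they were taken by symbol from a table of 24346 genes. They were Neurog1, Neurog2, Neurod4, Neurod1, Neurod2, Neurod6, Bhlhe22, Nhlh1 and Nhlh2, and each symbol was found once. RNA was sequenced from 15 samples of C57BL/6 mouse brain cells, 3 in each of 5 groups. D0 samples were astrocytes, samples at D4, D8 and D16 carried the label of chemically induced neurons on that day, and PN samples were primary neurons. The compounds, the age of the animals and the brain region are not given in the labels, which name no transgene. Each value is an FPKM (fragments per kilobase of transcript, scaled to sequencing depth), which corrects for transcript length and depth. The question was where the factors of the neurogenic cascade stood as astrocytes were induced, and how those levels compared with primary neurons.

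bHLH factors of this kind bind DNA as dimers with broadly expressed E proteins, at sites called E-boxes. In the developing mouse brain the neurogenins start neurogenesis in progenitors, NeuroD factors follow in newborn neurons, and Neurod2, Neurod6 and Bhlhe22 stay on in maturing cortical projection neurons. Id proteins, which lack the DNA-binding basic region, take up E proteins, and Hes and Hey repressors act downstream of Notch to keep progenitors from differentiating.

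Marker genes were set beside the labels. Summed over 6 markers per cell type, astrocyte markers lay at 660 to 1517 FPKM at D0, 433 to 506 at D4, 83.4 to 101.8 at D8, 39.9 to 45.6 at D16 and 119 to 207 FPKM in PN. The D4 sum was mostly Gfap, at 398 ± 42.6 FPKM at D4 against 560 ± 239 at D0. Some other markers were far lower at D4, with Aqp4 at 1.66 FPKM against 83.2 at D0, Slc1a3 at 6.33 against 189, and Aldh1l1 at 17.4 against 91.9 (means, n = 3). Pan-neuronal markers lay at 22.2 to 66.4 FPKM at D0, 213 to 237 at D4, 340 to 379 at D8, 386 to 434 at D16 and 2143 to 2537 FPKM in PN. Markers of microglia, oligodendrocyte lineage and endothelium summed to at most 12.2 FPKM in any library. D0 libraries also held ependymal markers (107 to 218 FPKM), fibroblast and mural markers (71.5 to 212 FPKM) and cycling-cell markers (279 to 375 FPKM). Cycling-cell markers lay at 44.5 to 76.3 FPKM at D4, 3.86 to 5.16 at D8, 2.46 to 4.34 at D16 and 20.4 to 40.9 in PN. Ependymal markers lay at 19.6 to 23.2 FPKM in PN and at most 14.5 in induced libraries. Fibroblast and mural markers were at most 16.7 FPKM outside D0. The ependymal sum at D0 was mostly Foxj1 (69.0, 151 and 118 FPKM) and Rsph1 (35.5, 56.2 and 45.8). Tmem212 was at 0 there, and no other ependymal marker exceeded 10.7 FPKM. The fibroblast and mural sum at D0 was mostly Col1a1 (65.7, 202 and 133 FPKM). Lum was at 0 there, and no other marker of that list exceeded 8.41 FPKM. FPKM totals ran from 548309 to 787080 per library. Depth read from the whole-fragment steps of low values spanned 0.681 to 1.95 relative to D8 replicate 1, highest in PN. Libraries of a group correlated at 0.966 to 0.987. D16 replicate 2 and PN replicate 3 stood apart from the other samples of their groups in Id1, which was 105 FPKM in that D16 library against 296 and 338, and 41.0 FPKM in that PN library against 3.74 and 4.51. In these bulk samples, fewer cells of a type and less RNA per cell cannot be told apart.

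Testing was limited to the 13983 genes with 1 FPKM or more in 3 or more libraries. Of the 9 bHLH genes, 5 were tested (Neurog2, Neurod1, Neurod2, Neurod6 and Bhlhe22). Neurog1, Neurod4, Nhlh1 and Nhlh2 were not. Changes are differences of log2(FPKM + 1) with their standard errors (SE) from limma over all genes, and p-values are Benjamini-Hochberg adjusted. Calls required both an adjusted p under 0.05 and a change of 1 or more in size. Since nothing in the labels says that replicates were separate cultures, the p-values reflect spread among these samples alone, and that spread may be technical.

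**Figure D1:**
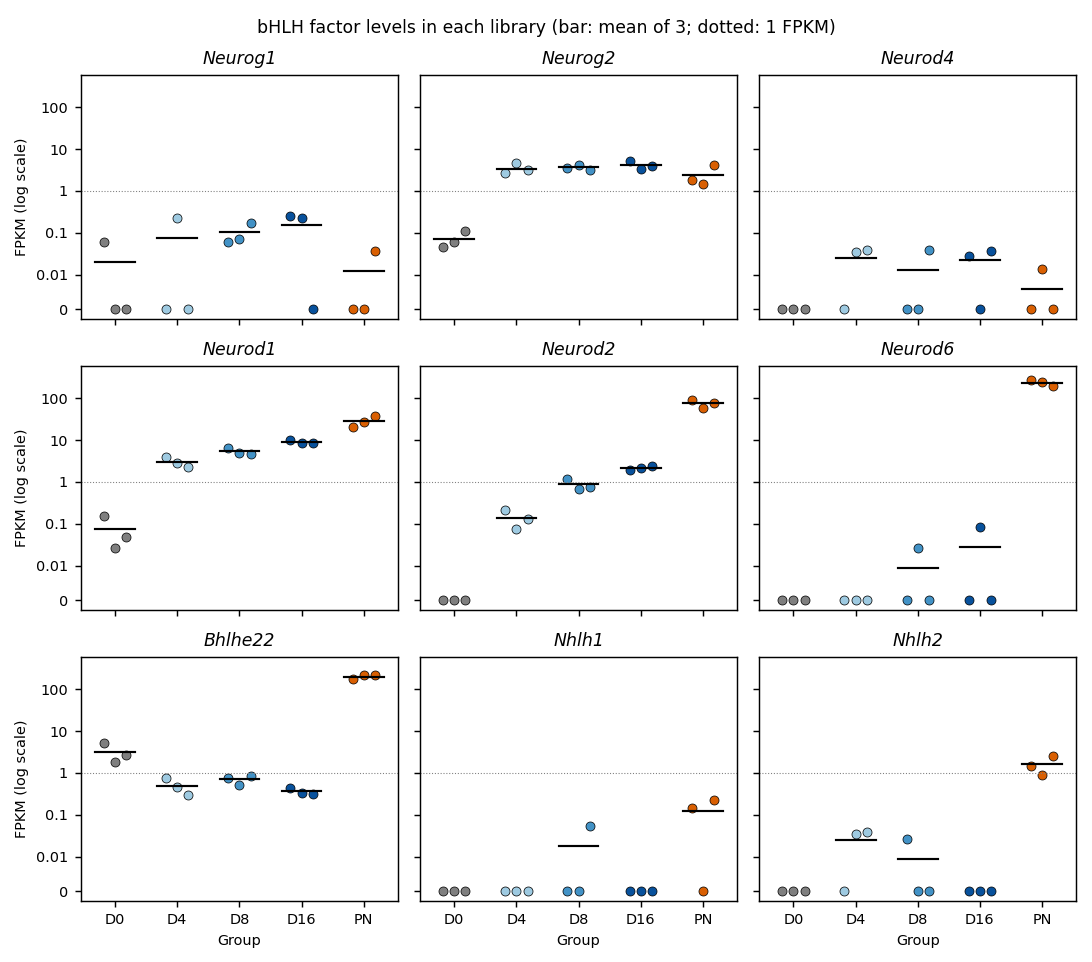
FPKM on a log scale (points at 0 are drawn at the foot of the axis) for each of the 9 bHLH genes in D0, D4, D8, D16 and PN, with 1 point per library, a bar at the mean of 3 and a dotted line at 1 FPKM. Neurog2 reached its highest mean at D16 (4.18 FPKM), Neurod1 and Neurod2 were higher at each later time and highest in PN, and Neurod6 was at 191 to 270.4 FPKM in PN against at most 0.0837 FPKM elsewhere.

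Counts of called genes among the 5 tested are given beside the share of all tested genes called, because that share was large. Against D0, 3 were called at D4 (Neurog2 and Neurod1 higher, Bhlhe22 lower), where 27.8% of all genes were called (13.6% higher and 14.2% lower). At D8 the same 3 genes were called, against a background of 32.4% (15.5% higher and 16.9% lower). At D16 the number was 4, with Neurod2 added among the higher ones, against 35.3% (16.6% higher and 18.7% lower). In PN all 5 tested genes were higher than at D0, against 41.0% called in either direction and 17.1% called higher. The filter shaped these counts against D0 at every time. Neurog2, Neurod1, Neurod2 and Neurod6 had no D0 library at 1 FPKM, so they were tested through other groups, Neurod6 only through PN. With D0 under 1 FPKM, a call of these genes against D0 could only be higher. Against PN, 4 genes were called at D4 (37.9% of all genes called), D8 (36.0%) and D16 (34.6%). All 4 were lower than in PN each time, as were 2234, 2173 and 2095 of all 13983 genes at those times, and Neurog2 was the gene not called. The filter also fixed 1 of these directions: Neurod6, tested only through PN, could only be called lower than PN. Between induced times, 2 were higher at D16 than at D4 (Neurod1 and Neurod2), where 7.20% of genes were called and 2.94% were higher. From D4 to D8 no gene of the 5 was called (2.01% of all genes), although Neurod1 (0.00653) and Neurod2 (0.00108) had an unadjusted p below 0.05. So had 2010 of all 13983 genes. Neurod2 also passed the adjusted threshold there (adjusted p = 0.0378) and missed the call on size alone, with a change of 0.71, while Neurod1 had an adjusted p of 0.118. From D8 to D16 none was called either (0.0286% of all genes), and the same 2 genes were again below 0.05 unadjusted, at 0.00560 and 0.000478. There 1835 of all 13983 genes were below 0.05 unadjusted. The size of a change from values near 0 depends on the pseudocount: with 0.1 FPKM in place of 1, the D16 change against D0 was 4.63 for Neurog2, 5.78 for Neurod1 and -2.72 for Bhlhe22. The comparisons with D0 share the D0 libraries and those with PN share the PN libraries.

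**Figure D2:**
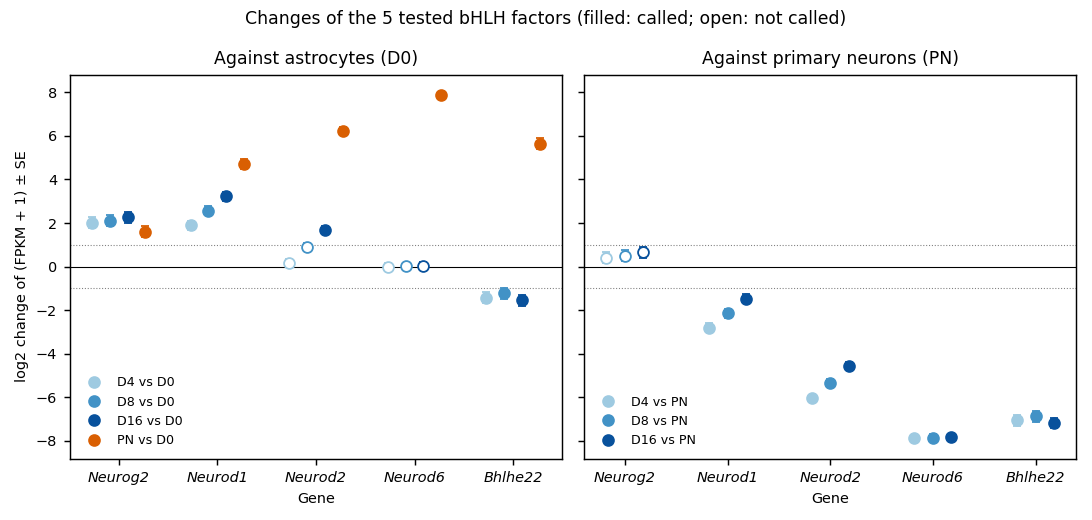
Change in log2(FPKM + 1) with its SE (limma) for the 5 tested bHLH genes, of D4, D8, D16 and PN against D0 on the left and of D4, D8 and D16 against PN on the right, with filled points called, open points not called and dotted lines at a change of 1 and -1. Neurog2 lies above 0 in both panels, Neurod1 and Neurod2 lie nearer to PN at each later time, Neurod6 stays at 0 against D0 until PN, and Bhlhe22 lies below 0 at every induced time.

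The promoters of the tested genes with a matched window are shown because they are the stretches of DNA on which these factors and their partners can act. RefSeq promoter windows were matched for 8 of the 9 genes, all but Bhlhe22, and are printed 5′ to 3′ for Neurog2, Neurod1, Neurod2 and Neurod6. All are on build GRCm38.p6. Capitals mark each E-box, written CANNTG, which reads the same on both strands. The Neurog2 window is chr3:127632886-127633134 on the plus strand, and the other windows are on the minus strand: chr2:79456752-79456886 for Neurod1, chr11:98329649-98329895 for Neurod2 and chr6:55681264-55681513 for Neurod6. Each stops before the first base of the annotated gene.
Neurog2: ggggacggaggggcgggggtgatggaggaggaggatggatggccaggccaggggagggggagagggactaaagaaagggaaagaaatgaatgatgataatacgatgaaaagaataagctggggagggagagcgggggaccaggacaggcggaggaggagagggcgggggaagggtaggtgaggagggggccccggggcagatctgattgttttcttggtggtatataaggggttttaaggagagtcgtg
Neurod1: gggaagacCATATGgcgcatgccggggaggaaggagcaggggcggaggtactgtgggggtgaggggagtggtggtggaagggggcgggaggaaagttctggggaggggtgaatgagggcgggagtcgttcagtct
Neurod2: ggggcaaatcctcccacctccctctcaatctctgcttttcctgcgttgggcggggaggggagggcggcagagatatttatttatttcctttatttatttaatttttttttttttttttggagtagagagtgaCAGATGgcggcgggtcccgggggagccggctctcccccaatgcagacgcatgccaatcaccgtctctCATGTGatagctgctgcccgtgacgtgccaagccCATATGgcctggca
Neurod6: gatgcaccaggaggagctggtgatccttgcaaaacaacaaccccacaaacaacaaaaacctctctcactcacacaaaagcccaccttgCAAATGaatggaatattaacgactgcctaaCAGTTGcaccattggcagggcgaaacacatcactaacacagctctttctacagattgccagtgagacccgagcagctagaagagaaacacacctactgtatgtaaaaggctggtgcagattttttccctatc
The Neurog2 window held no CANNTG. The Neurod1 window held 1, 242 bases before the RefSeq start site. The Neurod2 window held 3, at 118, 51 and 17 bases before the start, and the Neurod6 window held 2, at 162 and 132 bases. Of 32851 mouse promoter windows of 250 bases, 66.2% held at least 1 CANNTG. These counts are over the full 250-base windows, and the printed stretches hold every match. A match describes letters only, and no match says only that these letters are not in the window.

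Neurog2, a proneural factor that starts neurogenesis in the dorsal forebrain, rose by D4 and showed no called change between the induced times. The gene lies at chr3:127633135-127635631 on the plus strand (GENCODE M21), with 2 exons of which 1 is coding. It was at 0.0446, 0.0615 and 0.109 FPKM in the 3 D0 libraries, 2.62, 4.57 and 3.07 at D4, and 3.51, 4.22 and 3.14 at D8. At D16 it was at 5.19, 3.36 and 3.99 FPKM, and in PN at 1.83, 1.43 and 4.05. Every induced library lay above every D0 library, while the induced libraries of the 3 times overlapped and the highest PN library fell among them. Neurog2 rose in each induced group relative to D0, by 2.02 ± 0.25 at D4 (adjusted p = 7.61e-06), 2.10 ± 0.25 at D8 and 2.26 ± 0.25 at D16 (SE, n = 3 each, adjusted p = 1.48e-06 at D16). Between the induced times its changes were 0.08 from D4 to D8 (adjusted p = 0.946) and 0.16 from D8 to D16 (adjusted p = 0.826), neither called. PN also exceeded D0, by 1.61 ± 0.25 (adjusted p = 3.40e-05).

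The order of the Neurog2 means was D16 (4.18 FPKM), D8 (3.62), D4 (3.42), PN (2.43) and D0 (0.0717). Neurog2 was the only gene of the 5 tested whose induced means exceeded the PN mean, at 140.5% of it at D4, 149% at D8 and 172% at D16. The neighbours D4 and PN in that order differed by 0.41 ± 0.25 (adjusted p = 0.154), which was not called. The D16 to PN difference was 0.65 ± 0.25 (adjusted p = 0.0316), under the change needed for a call. It was 0.97 without PN replicate 3 (adjusted p = 0.00121), still under that change. Without both D16 replicate 2 and PN replicate 3, the difference was 1.09 (adjusted p = 0.00109) and was called, an alternative chosen after seeing the data. Over all alternatives it ran from 0.37 to 1.09, with adjusted p between 0.00109 and 0.205. In the same PN library Eomes, a marker of intermediate progenitors, was at 1.65 FPKM against 0.206 and 0.0251 in the other two. Eomes was chosen after its values were seen, and its part in the Neurog2 difference was not tested.

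Neurog1, the other proneural neurogenin, which acts in sensory ganglia, stayed near the limit of detection. It was listed at 0 in 2 of 3 libraries at D0, D4 and PN, and its highest value in any library was 0.246 FPKM. The 3 libraries of a group held 1 fragment in all at D0, 6 at D4, 5 at D8, 8 at D16 and 1 in PN. Neurod4, which promotes neuronal over glial fate in the retina and hindbrain, had 0, 3, 1, 2 and 1 fragments over the same groups, and at most 0.0399 FPKM. Both genes were therefore at a few fragments per library and were not tested, so no difference between groups is claimed for them.

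Neurod1, which drives terminal differentiation of newborn neurons and is used in glia-to-neuron conversion, had a higher mean at each later time and rose at every time relative to D0. The gene lies at chr2:79452521-79456751 on the minus strand, with 2 exons of which 1 is coding. It was at 0.156, 0.0269 and 0.0478 FPKM at D0, 3.99, 2.90 and 2.31 at D4, and 6.44, 5.03 and 4.68 at D8. At D16 it was at 10.3, 8.72 and 8.4996 FPKM, and in PN at 20.4, 26.8 and 36.9. No group overlapped with the next, and the D0 values came from 1 to 4 fragments per library, against 42 to 121 at D4, 163 to 265 at D16 and 956 to 1611 in PN. The mean was 0.0770 ± 0.0695 FPKM at D0, 3.06 ± 0.852 at D4, 5.38 ± 0.935 at D8, 9.17 ± 0.983 at D16 and 28.0 ± 8.32 in PN (SD, n = 3).

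Neurod1 rose by 1.90 ± 0.21 at D4 (adjusted p = 2.86e-06), 2.56 ± 0.21 at D8 and 3.24 ± 0.21 at D16 (adjusted p = 6.53e-09), all relative to D0, and by 4.71 ± 0.21 in PN. From D4 to D16 it rose by 1.34 ± 0.21 (adjusted p = 0.000640). The single steps were smaller than the change needed for a call, at 0.66 from D4 to D8 (adjusted p = 0.118) and 0.68 from D8 to D16 (adjusted p = 0.223). D16 cells stayed under PN, with a change of -1.48 ± 0.21 (adjusted p = 2.14e-05), which was -1.23 without D16 replicate 2 and PN replicate 3. As shares of the PN mean, Neurod1 stood at 10.9% at D4, 19.2% at D8 and 32.8% at D16. Its locus overlaps Cerkl on the same strand and a lincRNA on the opposite strand. Cerkl had means of 0.358 FPKM at D0, 1.22 at D4, 0.822 at D8, 0.729 at D16 and 0.588 in PN. The part of this overlap in the Neurod1 values was not tested.

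Neurod2, which supports differentiation and synapse formation of cortical and hippocampal neurons, reached 1 FPKM in all 3 libraries of a group only at D16 and in PN. The gene lies at chr11:98325415-98329648 on the minus strand. It was listed at 0 in all 3 D0 libraries, at 0.212, 0.0744 and 0.128 FPKM at D4, and at 1.16, 0.677 and 0.769 at D8. At D16 it was at 1.96, 2.202 and 2.43 FPKM, and in PN at 92.7, 57.6 and 77.9. Groups did not overlap, and the 3 induced groups lay between listed zeros and the far higher primary neurons. Neurod2 was at 0.182% of the PN mean at D4, 1.14% at D8 and 2.89% at D16.

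Against D0 the Neurod2 change was 0.18 at D4 (adjusted p = 0.393), 0.89 ± 0.18 at D8 (adjusted p = 0.000459, under the change needed) and 1.67 ± 0.18 at D16 (adjusted p = 9.51e-07). Only the D16 change was called. Since D0 was listed at 0, no fold is given and these sizes depend on the pseudocount. With a pseudocount of 0.1 FPKM in place of 1, all 3 were called, at 1.21, 3.25 and 4.52. From D4 to D16 it rose by 1.49 ± 0.18 (adjusted p = 8.82e-05). D16 cells lay under PN by a change of -4.57 ± 0.18 (adjusted p = 4.96e-11).

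Neurod6, a marker of cortical pyramidal neurons, was high in PN and all but absent from the other groups. The gene lies at chr6:55677822-55681263 on the minus strand. It was at 270.4, 247 and 191 FPKM in the 3 PN libraries, and its PN mean of 235.9 ± 40.9 FPKM was the highest group mean of the 9 genes. In D0 and D4 it was listed at 0 in every library, and at D8 and D16 it was listed at 0 in all but 1 library of each, at 0.0271 FPKM (D8) and 0.0837 FPKM (D16). Read as whole fragments, these values come to 1 fragment at D8 and 2 at D16, against 7055 to 10878 in each PN library. Neurod6 passed the low-value filter through the PN libraries alone, so its fitted changes of 7.87 ± 0.15 in PN against D0 and -7.83 ± 0.15 at D16 against PN (adjusted p = 2.72e-14 and 2.93e-14) follow from the filter in direction. Its D16 value against D0 was 0.04 (adjusted p = 0.835). Summed markers of cortical glutamatergic neurons lay at 27.0 to 31.0 FPKM at D16 against 99.2 to 171 FPKM in PN, and Tbr1, which is among them, was at 0.0609 ± 0.0582 FPKM at D16 against 14.5 ± 1.82 in PN. Slc17a7 made up most of the D16 sum, at 23.5, 25.2 and 24.2 FPKM. In PN it was at 38.4, 69.1 and 16.3 FPKM, so its groups overlapped. All other markers of the list were lower in every D16 library than in every PN library. The part of these markers in the Neurod6 difference was not tested.

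Bhlhe22, a repressor that with Prdm8 guides the axons of cortical projection neurons in the mouse, was the only gene of the 5 tested that fell in induced cells. It was also the only gene of the 5 with any D0 library at 1 FPKM or more, so the only one that could be called lower than D0. The gene lies at chr3:18054174-18057517 on the plus strand in a single exon. It was at 5.32, 1.78 and 2.62 FPKM at D0, 0.750, 0.456 and 0.293 at D4, and 0.744, 0.525 and 0.839 at D8. At D16 it was at 0.445, 0.324 and 0.318 FPKM, and in PN at 174, 213 and 214. Every D0 library was above every induced library, and every PN library was far above D0. Relative to D0, Bhlhe22 fell, with changes of -1.42 ± 0.24 at D4 (adjusted p = 0.000142), -1.23 ± 0.24 at D8 (adjusted p = 0.000402) and -1.55 ± 0.24 at D16 (adjusted p = 4.40e-05). The D8 change was -0.90 and was not called without D0 replicate 1, the highest of the D0 libraries. In PN it rose by 5.65 ± 0.24 relative to D0 (adjusted p = 4.60e-11). The order of the means was PN, D0, D8, D4 and D16, and its neighbours D8 and D4 (0.19, adjusted p = 0.831) and D16 and D4 (-0.13, adjusted p = 0.749) were not called apart. D16 cells held 0.181% of the PN mean, and the D16 to PN change was -7.20 ± 0.24 (adjusted p = 1.18e-11). Its cofactor gene Prdm8, a zinc-finger repressor, was chosen after its values were seen. Prdm8 was at 2.49 ± 1.09 FPKM at D16 against 0.236 ± 0.0738 at D0, a called rise of 1.45, but at 43.1 ± 20.9 FPKM in PN.

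Nhlh1 and Nhlh2, bHLH factors expressed in newly postmitotic neurons of the mouse embryo, were at or near 0 outside PN. Nhlh2, which in mice is needed for hypothalamic control of body weight and fertility, was at 1.48, 0.870 and 2.48 FPKM in PN. It was listed at 0 in every D0 and every D16 library, and was at most 0.0397 FPKM at D4 and 0.0271 at D8. Nhlh1 was at 0.1497, 0 and 0.230 FPKM in PN, and above 0 in only 1 other library, at D8 (0.0552 FPKM). Neither gene reached 1 FPKM in 3 libraries, so no adjusted p is given for them.

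The make-up of the set differed between astrocytes, induced cells and primary neurons. The 9 genes summed to 1.87 to 5.58 FPKM at D0, 5.88 to 8.30 at D4, 9.70 to 11.9 at D8, 14.9 to 18.2 at D16 and 526 to 560.5 FPKM in PN. Bhlhe22 was 94.4 to 95.3% of the D0 sum. Neurog2 and Neurod1 together were 87.3 to 91.5% of the sum at D4, 80.6 to 87.7% at D8 and 81.0 to 85.2% at D16, and 3.96 to 7.77% in PN. Neurod6 and Bhlhe22 together were 2.08 to 2.74% of the sum at D16, against 76.9 to 84.1% in PN. Within the induced cells the share of Neurod1 was 34.9 to 52.7% at D4, 47.7 to 54.0% at D8 and 55.7 to 58.5% at D16, and that of Neurog2 was 34.6 to 55.1% at D4 and 22.5 to 28.5% at D16. Neurod2 held 10.8 to 15.9% of the sum at D16 against 10.5 to 16.5% in PN, so its share overlapped while its level did not.

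**Figure D3:**
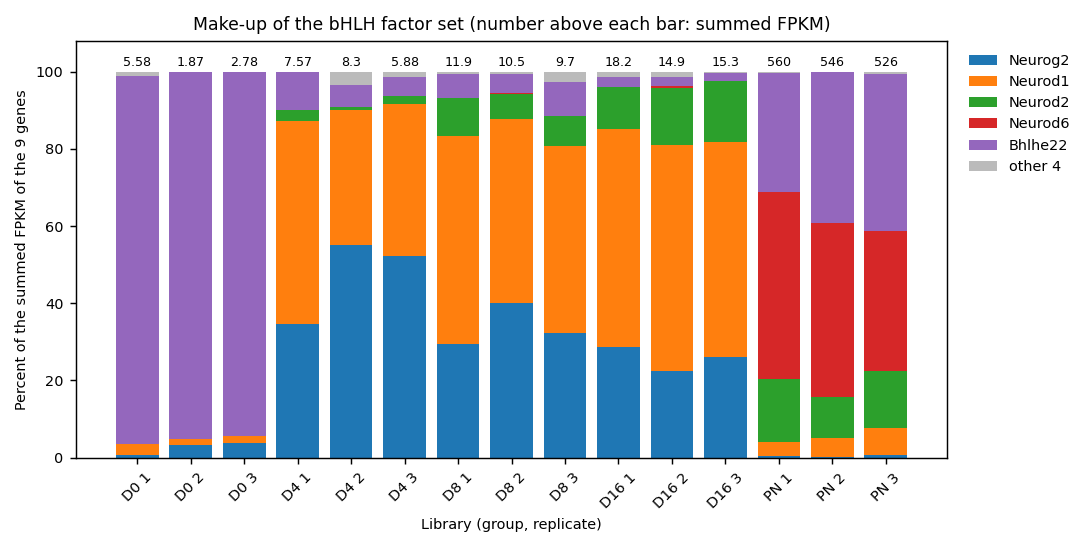
Percent of the summed FPKM of the 9 bHLH genes in each library (1 bar per library, grouped as D0, D4, D8, D16 and PN), with the summed FPKM above each bar. Bhlhe22 fills the D0 bars, Neurog2 and Neurod1 fill at least 80.6% of every induced bar, and Neurod6 and Bhlhe22 fill at least 76.9% of every PN bar.

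Likeness between genes was described by Pearson's r of log2(FPKM + 1) over the 15 libraries, which share 5 groups, so that a difference between groups alone can give a high r. Neurod6 and Bhlhe22 (0.97), Neurod2 and Neurod6 (0.97) and Neurod2 and Bhlhe22 (0.91) ran together, as all were highest in PN. Neurod1 lay closer to Neurod2 (0.84) than to Neurog2 (0.65), and Neurog2 with Bhlhe22 was at -0.19. Among all tested genes the closest to Neurog2 were Rbm4b (0.96), Agpat5 (0.95) and Rgs10 (0.94). Rgs10, a regulator of G protein signalling, had means of 7.24 FPKM at D0, 64.7 at D4, 67.8 at D8, 76.4 at D16 and 44.9 in PN. The closest to Neurod1 were Sh3gl2, a synaptic endophilin, Rab3c, a vesicle GTPase, and Trim32, a ubiquitin ligase, all at 0.98. Sh3gl2 had means of 0.609 FPKM at D0, 5.61 at D4, 10.9 at D8, 18.7 at D16 and 45.6 in PN. The closest to Neurod2 were Lppr1, Glra2 and Clmp (each 0.99), and to Bhlhe22 they were Myh7, Hes5 and Gria1 (each 0.99). The closest to Neurod6 were Tbr1, a cortical layer factor, B230209E15Rik and St6gal2, each at 0.999.

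E proteins, the dimer partners, were present in all groups. Tcf3 was at 43.4 ± 1.02 FPKM at D0, 24.9 ± 2.79 at D4, 22.2 ± 1.28 at D8, 20.6 ± 2.66 at D16 and 15.1 ± 5.82 in PN (SD, n = 3). Tcf4, which patterns and matures forebrain neurons, was at 47.5 ± 9.56 FPKM at D0, 60.6 ± 6.97 at D16 and 104.7 ± 18.2 in PN, and Tcf12 was at 41.3 ± 13.3 at D0, 48.6 ± 16.6 at D16 and 15.7 ± 5.55 in PN. None of the 3 was called at D4 or D8 against D0, although 1 was called lower at D8 with every library scaled to an equal FPKM total. At D16 Tcf3 alone was called, with a change of -1.04 ± 0.20 (adjusted p = 0.000274), 1 gene of 3 where 35.3% of all genes were called. That call was lost under quantile normalization and without D16 replicate 2 and PN replicate 3. In PN Tcf4 rose by 1.13 ± 0.17 relative to D0, and Tcf3 and Tcf12 fell.

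Several antagonists fell in induced cells. Of the 8 Id, Hes and Hey genes tested of 9 listed, 4 fell and none rose at D4, 5 fell at D8, 4 fell at D16 and 5 fell with 1 risen in PN, relative to D0. Of all tested genes 14.2% were lower at D4, 16.9% at D8 and 18.7% at D16, and 3339 of 13983 were lower in PN. With quantile normalization 3 antagonists fell at D4 and 3 at D8. Their median change was -1.44 at D16 and -1.92 in PN, beside -0.01 and -0.12 for all genes tested. Id4, an inhibitor of E protein dimers, fell most at D16, with means of 6.56 ± 0.295 FPKM at D16 against 88.0 ± 36.2 at D0 (change -3.48 ± 0.25, adjusted p = 2.10e-08). Hes1, a repressor of proneural genes, was at 11.1 ± 8.93 FPKM at D16 against 46.6 ± 5.22 at D0 (change -2.32 ± 0.53, adjusted p = 0.00144). Hey1, another Notch effector, was at 10.7 ± 1.21 FPKM at D16 against 45.4 ± 21.4 at D0 (change -1.89 ± 0.25, adjusted p = 1.13e-05). Id3 was at 156 ± 75.7 FPKM at D16 against 664 ± 127 at D0, a fall, and at 23.2 ± 30.6 FPKM in PN. By library, Id3 was at 201, 68.6 and 199 FPKM at D16 against 4.54, 6.60 and 58.5 in PN, so the groups did not overlap, with D16 replicate 2 and PN replicate 3 nearest each other. Id1, chosen after its values were seen, was at 246 ± 124 FPKM at D16 against 425 ± 84.5 at D0 and was not called (change -0.93, adjusted p = 0.200). D16 cells held more Id3 and Id1 than PN, with changes of 3.38 ± 0.64 (adjusted p = 0.000296) and 4.42 ± 0.61 (adjusted p = 1.66e-05).

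Of 12 other neural bHLH factors listed, 4 were tested, and against D0 3 fell and 1 rose at D4, D8 and D16, while 3 fell and none rose in PN. Of all genes, 27.8% were called at D4, 32.4% at D8, 35.3% at D16 and 41.0% in PN, and 14.2%, 16.9% and 18.7% were lower at the 3 induced times. The 4 factors had a median change of -5.04 at D16, beside -0.01 for all genes. Olig1 and Olig2, factors of the oligodendrocyte lineage, were at 2.49 ± 0.583 and 2.75 ± 0.349 FPKM at D16 against 242 ± 53.9 and 72.4 ± 21.6 at D0. Atoh8, a bHLH factor known from several tissues, was at 1.15 ± 0.218 FPKM at D16 against 122 ± 2.87 at D0. Hand2, a factor of sympathetic neurons and heart, was the 1 that rose, at 11.97 ± 5.94 FPKM at D16 against 0.273 ± 0.0516 at D0, and it was listed at 0 in every PN library. It passed the low-value filter through induced libraries alone, so the direction of its call follows from the filter.

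Some of the genes known to act downstream of neurogenins and NeuroD factors rose. The 4 named next by size of change at D16 were all called. Of 17 tested of 18 listed, 7 rose at D4, 9 at D8, 11 at D16 and 10 in PN relative to D0, none fell in induced cells and 1 fell in PN. Of all tested genes 13.6% were higher at D4, 15.5% at D8, 16.6% at D16 and 17.1% in PN. The low-value filter shaped the list's counts and medians: 12 of the 17 had no D0 library at 1 FPKM, so they were tested through other groups, and these 12 gave 5 of the 7 risen at D4, 7 of the 9 at D8, 9 of the 11 at D16 and 7 of the 10 in PN. The median change was 0.85 at D4, 1.33 at D8, 1.32 at D16 and 1.60 in PN, beside -0.01, 0.00, -0.01 and -0.12 for all genes. Scrt1, a neuronal zinc-finger repressor, was at 80.8 ± 12.2 FPKM at D16 against 0.0107 ± 0.0185 at D0 (change 6.33 ± 0.24, adjusted p = 3.21e-11). Insm1, a zinc-finger factor of newborn neurons and endocrine cells, was at 10.5 ± 4.21 FPKM at D16 against 2.12 ± 1.56 at D0. Rnd2, an atypical small GTPase needed for migration of cortical neurons in the mouse, was at 41.0 ± 0.0920 FPKM at D16 against 15.9 ± 1.98 at D0. Ebf3, a factor of early neuronal differentiation, was at 5.12 ± 1.503 FPKM at D16 against 0.0303 ± 0.0141 at D0 and 0.0472 ± 0.0171 in PN.

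Against PN, 6 of the 17 downstream genes were higher at D16, 5 were lower and 6 were not called, where 34.6% of all genes were called, 2745 higher and 2095 lower of 13983. The filter fixes the direction of 5 of these 11 calls: Ebf2, Ebf3 and Mfng, all higher, passed it through induced libraries alone, and Dcx and Tbr1, both lower, through PN libraries alone. The list had a median change of -0.35, which was -0.02 without D16 replicate 2 and PN replicate 3. Dcx, a microtubule protein of migrating neurons chosen after its values were seen, was at 0.318 ± 0.103 FPKM at D16 against 133 ± 18.8 in PN. Eomes was at 2.77 ± 0.242 FPKM at D16 against 0.627 ± 0.891 in PN (change 1.34 ± 0.30, adjusted p = 0.00117). Over the same libraries the summed markers of sensory, autonomic or endocrine neurons lay at 214 to 522 FPKM at D16 against 55.3 to 89.7 in PN, and GABAergic markers at 165 to 338 FPKM at D16 against 76.3 to 153 in PN. The GABAergic sum was mostly Gad1, at 126 ± 68.0 FPKM at D16 against 54.4 ± 19.4 in PN, and Slc32a1, at 70.8 ± 19.7 against 24.4 ± 9.72. Gad2 (9.20 against 10.9 FPKM) and Dlx5 (1.80 against 7.596 FPKM) had lower means at D16 than in PN, and Dlx1 had 9.90 against 9.34 FPKM. The part of these markers in the changes of downstream genes was not tested.

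Of 9 upstream and cooperating factors tested of 10 listed, 2 rose and 1 fell at D4, 3 rose and 3 fell at D8, 2 rose and 3 fell at D16, and 4 rose and 3 fell in PN, relative to D0. The 3 of 9 at D4 compare with 27.8% of all genes called, the 6 at D8 with 32.4%, the 5 at D16 with 35.3% and the 7 in PN with 41.0%. Myt1l, 1 of the 4 risen in PN, was tested through PN libraries alone. The median change of the 9 at D16 was -0.24, beside -0.01 for all genes, and 0.07 without D16 replicate 2 and PN replicate 3. Sox11, a factor of differentiating neurons, was at 54.0 ± 12.3 FPKM at D16 against 6.50 ± 1.89 at D0, and at 52.6 ± 11.9 in PN (D16 against PN 0.04 ± 0.22, adjusted p = 0.887). Pax6 and Sox2, factors of neural progenitors, were at 1.51 ± 0.992 and 26.6 ± 15.4 FPKM at D16 against 15.3 ± 2.34 and 164 ± 22.9 at D0, and both fell. Lmo4, a LIM-only cofactor, was at 33.9 ± 8.92 FPKM at D16 against 194 ± 41.6 at D0 and 284 ± 81.2 in PN.

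**Figure D4:**
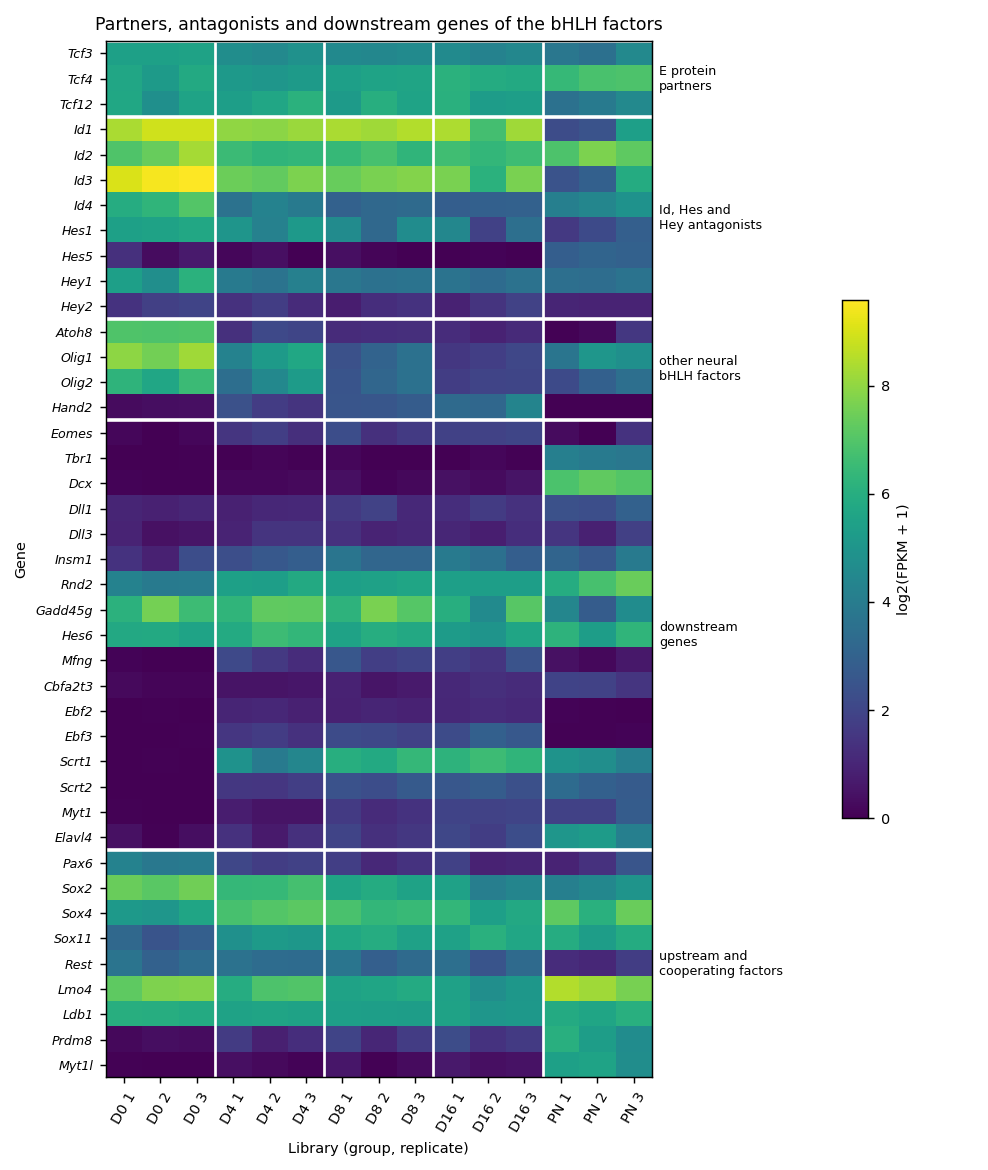
log2(FPKM + 1) of the tested partners, antagonists, other neural bHLH factors, downstream genes and upstream or cooperating factors (rows) in each of the 15 libraries (columns), from dark (0) to yellow (high). Scrt1 goes from dark at D0 to bright at D16 (80.8 FPKM), Tbr1 and Dcx are bright in PN alone, and Id1 is lower in D16 replicate 2 than in the other D16 libraries.

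The 9 genes are related by descent, and the longest stretch shared by the transcripts of a pair was 26 bases, between Neurog1 and Neurog2, followed by 25 between Neurod1 and Neurod2 and 20 between Nhlh1 and Nhlh2. All are shorter than the reads (150 bases).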

How the data were processed

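RNA of 15 mouse brain cell samples was sequenced as paired-end reads of 150 bases, per the labels. FPKM values of 24346 gene symbols were deposited by the authors in a single table, and the genome was mm10 (GRCm38), per the submitters' processing notes. The aligner, the quantifier and the annotation are not given in the sources used here. Read counts were not used here. Depth was taken from the steps of low FPKM values, where 31 values of 8 of the bHLH genes lay within 0.0156 fragment of a whole number.

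Values were transformed as log2(FPKM + 1), a scale that understates the change of low genes. A model of 5 group means over the 15 libraries was fitted with limma 3.58.1 (R 4.3.3) and a variance trend, over 13983 genes at 1 FPKM or more in at least 3 libraries. P-values were adjusted by Benjamini-Hochberg over those genes per comparison, and calls required both an adjusted p under 0.05 and a change of 1 or more in size. The fit was checked on simulated data. The 9 genes and all gene lists were chosen with earlier results of these data known. From each list up to 4 called genes were named, those with the largest change at D16 and then in PN against D0 that reached 5 FPKM in the higher group, and lists of 3 were named in full. A gene of the list of other neural bHLH factors is not reported here and was left out of its counts.

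Whether equal replicate numbers pair samples was checked from correlations of deviations from the group means. All same-number pairs of D4 and D8 correlated at 0.329 to 0.454, and no other comparison had all its pairs above 0.1. The replicate block was run as an alternative, beside another pseudocount (0.1), no filter, a filter at 5 FPKM, equal totals, quantile normalization, a fit restricted to the compared groups, each library left out in turn, no minimum on the change, and the fit without 2 libraries, which was chosen after seeing the data. Gene positions are from GENCODE M21 (GRCm38) and promoters from RefSeq (GRCm38.p6). Tables and figures used Python 3.11.15, numpy 2.4.6, pandas 2.3.3 and matplotlib 3.10.9.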

Additional observations from a re-analysis of the deposited data

Results flagged for a closer look

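For 4 of the 5 tested genes the change from D0 differed between D16 and PN, tested as the D16 to PN change in the limma fit on log2(FPKM + 1). These are the D16 against PN calls given above, where 34.6% of all tested genes were called and 2095 of 13983 were lower at D16. The D16 change minus the PN change was -1.48 for Neurod1 (3.24 at D16 and 4.71 in PN) and -4.57 for Neurod2 (1.67 at D16 and 6.24 in PN). For Neurod6 the difference was -7.83, with 0.04 at D16 and 7.87 in PN, and this gene was tested only through its PN values. For Bhlhe22 the difference was -7.20, with opposite directions (-1.55 at D16 and 5.65 in PN). All 3 D16 libraries were below all 3 PN libraries for each of these genes. How many of all genes were separated in this way was not counted.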

How the results depend on the processing

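Over all alternatives, 1182 values of the 5 tested genes stayed on the same side of the call threshold, 7 gained a call, 1 lost it, and no called change reversed. The lost call was Bhlhe22 in D8 against D0 without D0 replicate 1. With a filter at 5 FPKM, Neurog2 was not tested. With no minimum on the change, called genes numbered 7587 (D4 against D0), 8340 (D8 against D0), 8775 (D16 against D0), 9067 (PN against D0), 9029, 8859 and 8678 in the D4, D8 and D16 comparisons with PN, 467 between D8 and D4 and 2546 between D16 and D4. Of the bHLH genes 1 was called in D8 against D4 with a pseudocount of 0.1 and 1 with no minimum (Neurod2), against 0 as reported. In D16 against D8, where 4 genes were called, the number was 0 with a pseudocount of 0.1, 1 with no filter, 0 with a filter at 5 FPKM, 2 with the replicate block and 0 with only the 2 groups compared. Leaving out 1 library gave 1 to 73 genes there, with 73 without D16 replicate 1 and 11 without D8 replicate 1, and 173 (without D4 replicate 2) to 338 in D8 against D4, against 281. The cause of these shifts was not tested. The replicate block gave 300 called genes in D8 against D4, the comparison where all same-number pairs correlated above 0.1, and changed no call of the 5 genes. The labels do not say that these numbers pair the samples.

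Equal totals moved the median of all genes by 0.11 in PN against D0, -0.14 in D4 against PN and -0.21 in D8 against PN, and quantile normalization by 0.12 in PN against D0. The share of called genes that were higher was 56.8% in D8 against PN and 46.4% with equal totals, and 75% and 100% in D16 against D8. Neurog1, Neurod4 and Nhlh1, at no more than 10 fragments in any library, were not tested, so no difference between groups is claimed for them.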
